A study of Mus musculus with 12 samples.

Results

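This report describes 10 genes that encode neuronal splicing and RNA-binding factors, Rbfox1, Rbfox2, Rbfox3, Celf2, Celf4, Nova1, Nova2, Khdrbs2, Khdrbs3 and Elavl2, in cultured mouse cortical neurons. They were chosen by symbol, and all 10 were found among the 23893 genes of the count table. The RNA-seq data comprised 12 libraries, 3 in each of 4 groups. Cultures were made from C57BL6/J embryos of E13.5 to E15.5 and received lentivirus after 3 days in vitro (DIV). By the study's methods all cultures carried Top1 fl/fl alleles, in which LoxP sites flank an exon of Top1, whereas the labels name the genotypes Wild-type and Top1cKO and describe the mothers as wild-type. WT-Veh cultures received virus with tdTomato, a red fluorescent protein, under the CaMKIIα promoter and, at DIV 15, vehicle (0.003% DMSO) for 3 days. WT-Topot cultures received the same virus and 300 nM topotecan in 0.003% DMSO. Top1 cKO-Veh and Top1 cKO-Topot cultures received virus that also carried the recombinase CRE, with vehicle or 300 nM topotecan respectively. All cells were harvested at DIV 18. The CaMKIIα promoter limits CRE to neurons and about 85 to 90% of cells were transduced, so the Top1 cKO cultures still held cells with intact Top1.

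RNA-binding factors of these families recognize short motifs in nuclear transcripts and in mature mRNA. RBFOX proteins bind GCAUG and, depending on whether they bind upstream or downstream of an exon, repress or promote its inclusion. CELF proteins bind GU-rich RNA, NOVA proteins bind clusters of UCAU-like motifs, and KHDRBS2 and KHDRBS3 (also called SLM1 and SLM2) bind UA-rich RNA and regulate alternative exons of the neurexins. ELAVL2 (HuB) binds U-rich elements and affects splicing, stability and translation. In cortex these proteins set much of the splicing program of differentiating neurons, and RBFOX3 is the antigen NeuN, which marks neuronal nuclei. Topotecan holds TOP1, the topoisomerase that relaxes supercoiled DNA during transcription, on the DNA it has cut. The comparisons asked how the transcripts of these factors responded to topotecan, to deletion of Top1, and to topotecan once Top1 was deleted.

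Libraries held 1730164 to 4583777 counts. Levels are given as CPM, counts per 1000000 of a library size scaled by edgeR's TMM method, and all 10 genes had a mean of at least 1 CPM. Top1 itself ranged from 117 to 163 CPM without CRE and from 27.1 to 44.0 CPM with it, so every library matched its label as to CRE. Top1 overlapped between vehicle and topotecan libraries, so its level does not check the topotecan labels. Its count covers the whole gene, not the floxed exon alone. Of 12 short neuronal markers, all were detected, with a summed level of 6800 to 9290 CPM in WT-Veh, 8010 to 8930 in WT-Topot, 8280 to 10900 in Top1 cKO-Veh and 8200 to 10300 in Top1 cKO-Topot libraries. All 8 astrocyte markers were also detected, at 2370 to 4830, 1090 to 1840, 2680 to 6140 and 1690 to 3110 CPM in the same order. Astrocyte transcripts were thus present, and lower in WT-Topot than in WT-Veh libraries. Markers of the oligodendrocyte lineage summed to 98.5 to 155 CPM in WT-Veh and 128 to 152 CPM in WT-Topot libraries. Microglial markers summed to at most 18.3 CPM. Of genes that mark dividing cells, Top2a and Ccnb1 had at most 3 counts in every library. Cdk1 had more than 3 in at least 1 Top1 cKO-Veh library, and Mki67 in at least 1 library of every group. These are bulk samples, in which fewer cells of a type and less RNA per cell cannot be told apart. The labels do not say what a replicate number stands for, so p-values measure the spread between these cultures. In edgeR that spread is pooled over genes, so a very small p-value does not rest on 1 gene's cultures alone.

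Per kb of annotated exon, Celf4 was the most abundant member in WT-Veh cells, at 117 ± 9.27 CPM per kb (SD, n = 3), followed by Rbfox2 (71.5 ± 0.832), Khdrbs3 (70.8 ± 21.2), Celf2 (58.9 ± 8.35) and Rbfox1 (58.4 ± 0.924). Khdrbs3 lay within its own SD of Rbfox2, Celf2 and Rbfox1, and Celf2 and Rbfox1 differed by less than the SD of Celf2. Elavl2 (30.3 ± 7.69), Rbfox3 (27.0 ± 2.41) and Nova2 (24.3 ± 4.57) lay within the larger SD of their neighbor in this order. Nova1 was lower, at 5.19 ± 1.54 CPM per kb. Khdrbs2 was barely detected, with 2 to 8 counts in each of the 12 libraries (1.67 ± 0.439 CPM in Top1 cKO-Veh and 0.911 ± 0.267 CPM in Top1 cKO-Topot cells). At that depth no difference in Khdrbs2 was detectable, its libraries overlapped in every comparison, and no fold change is given for it.

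**Figure D1:**
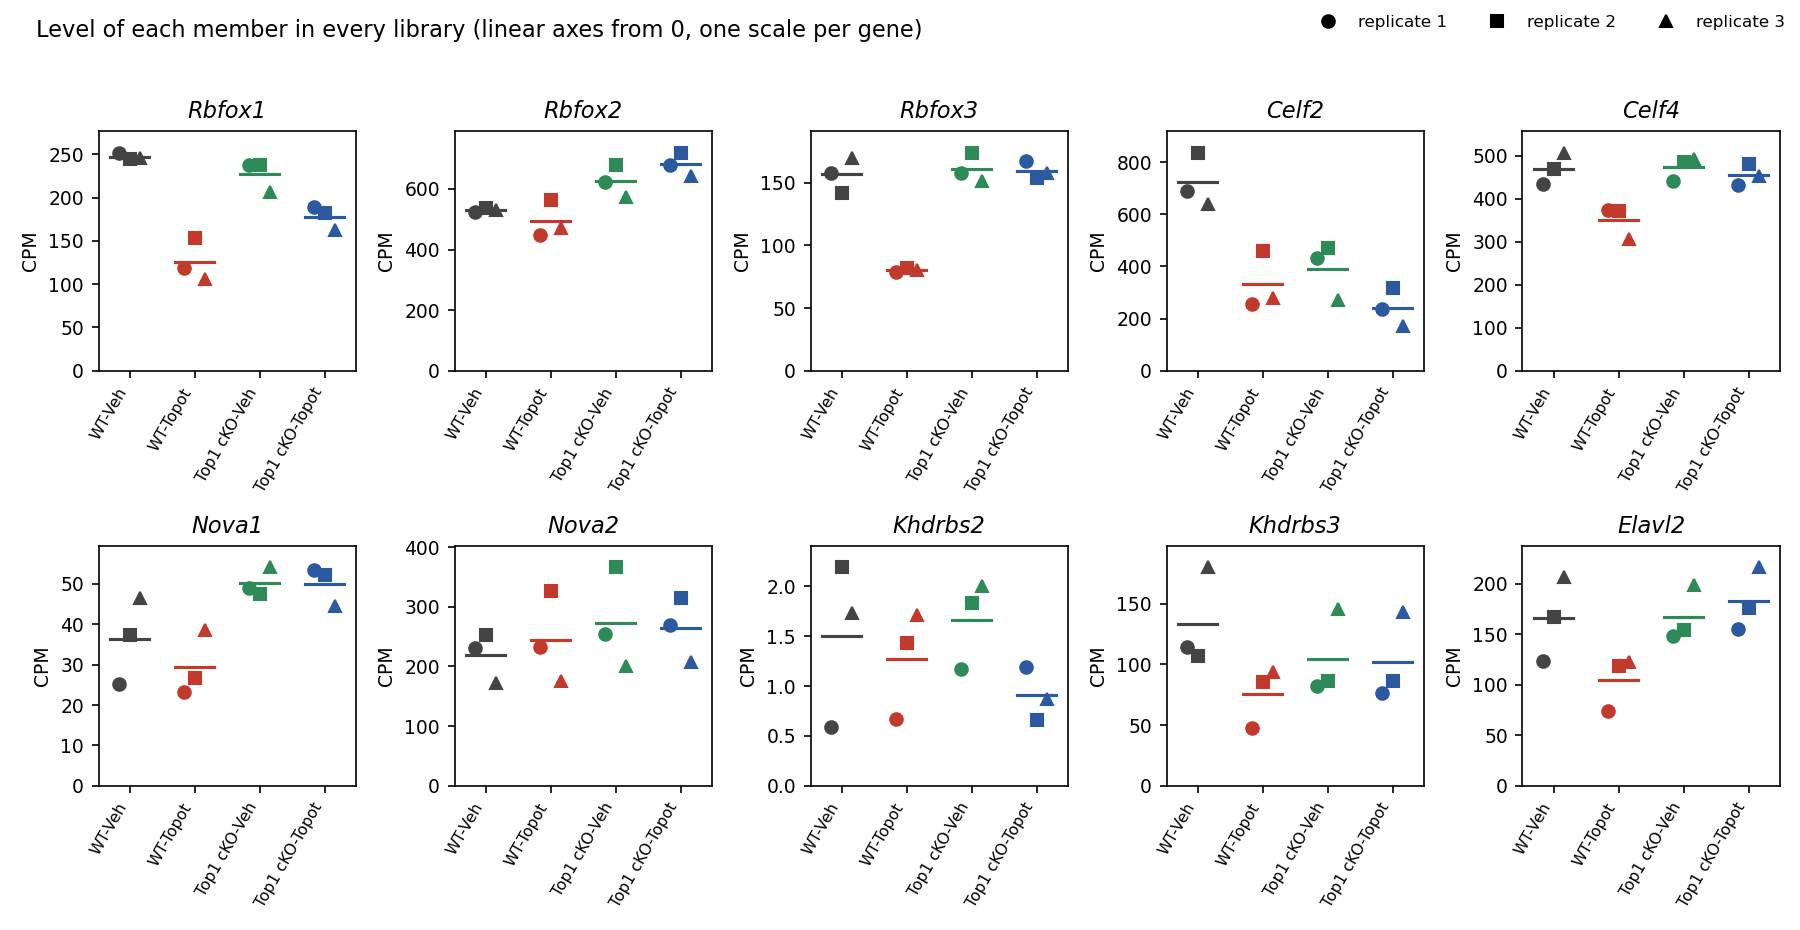
Level of each of the 10 genes in CPM (vertical axes, linear, from 0, scaled per gene) in the 4 groups, with 1 point for each library, shaped by replicate number, and a line at the group mean. Rbfox3 lay between 78.4 and 81.6 CPM in WT-Topot libraries and between 142 and 174 CPM in the other 9 libraries, whereas Celf2 was lower than in WT-Veh cells in all 3 other groups.

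Of the 10 genes, 9 span more than 100 kb of the genome in the GENCODE vM1 annotation of mm9. Rbfox1 is the longest (chr16:6809315-7412572, + strand, 603.3 kb), followed by Celf2 (chr2:6460751-7002348, − strand, 541.6 kb), Khdrbs2 (chr1:32229651-32714583, + strand, 484.9 kb) and Rbfox3 (chr11:118351074-118772911, − strand, 421.8 kb). Celf4 (chr18:25636133-25912484, − strand, 276.4 kb) and Rbfox2 (chr15:76909420-77137483, − strand, 228.1 kb) are intermediate. Khdrbs3 (chr15:68758850-68923942, + strand, 165.1 kb), Elavl2 (chr4:90917454-91066675, − strand, 149.2 kb) and Nova1 (chr12:47795504-47919762, − strand, 124.3 kb) are shorter. Nova2 (chr7:19510698-19551031, + strand) spans 40.33 kb.

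The paralogs that are not among the 10 are mostly short, with 1 of 8 over 100 kb (Elavl4, 148.2 kb). Exons of Nova2 overlap those of the noncoding RNA Gm17370 on the opposite strand by 2652 bases, and exons of Celf2 overlap those of Gm17437 by 196 bases. Whether counting used strand is not given in the sources used here, so reads of these pairs may be shared. Exons of the other 8 genes overlap no exon of another gene in this annotation.

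The bases before the transcription starts are shown for the 3 genes that fell with topotecan, where members moved together, and for Nova2, the short member, as a contrast. They are the 250 bases upstream of RefSeq starts on GRCm38.p6, 5′ to 3′ on the gene's strand. Entries were kept for 7 of the 10 genes, and the other 3 had none or were left out. Capitals mark matches to the TATA box, written TATAAA, or to the GC box, written GGGCGG. The cyclic AMP response element, written TGACGTCA, and the E-box, written CACGTG, were searched as well, all on both strands. The Rbfox1 windows are chr16:5884543-5884792 and chr16:7069585-7069834 (+ strand), whose starts lie 1185 kb apart. The others are chr11:118761042-118761291 (− strand) for Rbfox3, chr2:7396199-7396448 (− strand) for the most upstream start of Celf2 and chr7:18925638-18925887 (+ strand) for Nova2.
Rbfox1, upstream start: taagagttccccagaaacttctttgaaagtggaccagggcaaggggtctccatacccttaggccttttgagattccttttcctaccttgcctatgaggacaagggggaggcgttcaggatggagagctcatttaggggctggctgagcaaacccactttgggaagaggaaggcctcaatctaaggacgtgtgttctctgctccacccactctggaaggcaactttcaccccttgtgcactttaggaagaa
Rbfox1, downstream start: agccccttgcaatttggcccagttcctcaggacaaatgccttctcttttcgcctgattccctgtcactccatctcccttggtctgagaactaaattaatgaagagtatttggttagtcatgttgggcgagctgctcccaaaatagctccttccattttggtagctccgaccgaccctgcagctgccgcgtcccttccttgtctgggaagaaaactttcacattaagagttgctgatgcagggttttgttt
Rbfox3: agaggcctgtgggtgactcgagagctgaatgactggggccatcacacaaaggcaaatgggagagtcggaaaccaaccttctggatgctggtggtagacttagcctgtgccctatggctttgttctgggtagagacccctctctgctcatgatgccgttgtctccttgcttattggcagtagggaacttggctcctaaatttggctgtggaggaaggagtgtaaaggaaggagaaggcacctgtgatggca
Celf2, most upstream start: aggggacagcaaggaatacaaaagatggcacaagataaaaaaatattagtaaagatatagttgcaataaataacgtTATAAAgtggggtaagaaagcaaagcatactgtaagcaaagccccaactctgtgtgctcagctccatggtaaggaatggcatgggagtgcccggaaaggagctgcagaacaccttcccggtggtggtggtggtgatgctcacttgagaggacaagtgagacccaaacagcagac
Nova2: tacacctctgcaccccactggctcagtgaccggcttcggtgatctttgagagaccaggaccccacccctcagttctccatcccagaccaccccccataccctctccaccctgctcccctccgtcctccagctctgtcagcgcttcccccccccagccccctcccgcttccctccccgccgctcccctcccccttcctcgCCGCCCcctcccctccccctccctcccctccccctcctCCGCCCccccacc

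None of the 4 letter strings was found in either Rbfox1 window or in that of Rbfox3, the Celf2 window held 1 TATA box, and that of Nova2 held 2 GC boxes. Of 32851 windows of the same length, 12.4% held TATAAA, 32.7% GGGCGG, 1.55% TGACGTCA and 6.02% CACGTG. The GC content was 51.2% and 48.4% for Rbfox1, 52.8% for Rbfox3, 45.6% for Celf2 and 71.2% for Nova2, against a median of 52.4% over all windows. Celf2 has further starts 0.198, 314.9, 524.2 and 674.5 kb downstream of the first. Their windows had 47.2%, 47.2%, 82.8% and 54.4% GC and held 1, 0, 3 and 0 GC boxes, in that order. Which starts were used in these cultures cannot be read from counts summed over a gene, so the span over which a gene was transcribed may be shorter or longer than its span in GENCODE vM1.

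Topotecan lowered Celf2, Rbfox1 and Rbfox3 by 1.95- to 2.17-fold in WT cells. By edgeR's quasi-likelihood test at an FDR of 0.01, with Benjamini-Hochberg adjustment across the whole table, 3 of the 10 genes were lower in WT-Topot than in WT-Veh cells, where 2.04% of all genes were. None of the 10 was higher, where 0.682% of all genes were. Genes of at least 1 CPM on average are called expressed here, and of those over 100 kb 18% were lower. At an unadjusted p of 0.05, 6 of the 10 differed, against 13.1% of all genes and 44.2% of expressed genes over 100 kb. The libraries of WT-Topot lay wholly below those of WT-Veh for 6 of the 10 genes, against 13.2% of expressed genes and 39% of those over 100 kb. The replicate numbers pair the cultures, and when they were fitted as a block 6 of the 10 were lower, against 5% of all genes and 34.1% of expressed genes over 100 kb.

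Rbfox3 varied little between the topotecan libraries. It stood at 158, 142 and 170 CPM in WT-Veh replicates 1, 2 and 3 and at 78.4, 81.6 and 80.5 CPM in WT-Topot cells, so the groups lay far apart. Its log2 fold change was −0.96 (SE 0.18, adjusted p = 0.00209, edgeR), a 1.95-fold decrease. Rbfox1, which encodes the paralog best known for control of neuronal excitability genes, went from 252, 244 and 246 CPM to 119, 153 and 106 CPM. Again no library overlapped, and the log2 fold change was −0.97 (SE 0.183, adjusted p = 0.0024, edgeR), although the adjusted p was 0.0196 without WT-Topot replicate 3. Rbfox2, the paralog expressed outside the nervous system as well, was not called. It had 524, 536 and 529 CPM with vehicle and 448, 564 and 470 CPM with topotecan, with a log2 fold change of −0.10 (95% interval −0.43 to 0.24), so the groups overlapped and a decrease as large as that of its paralogs lay outside the interval.

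Celf2, which encodes a CELF protein of nucleus and cytoplasm, had the largest decrease of the 10. It had 690, 837 and 640 CPM in WT-Veh cells and 256, 460 and 280 CPM in WT-Topot cells, with replicate 2 the highest in both groups. The log2 fold change was −1.12 (SE 0.205, adjusted p = 0.00168, edgeR), a 2.17-fold decrease. Celf4, a CELF paralog of excitatory neurons, went from 433, 468 and 507 CPM to 373, 372 and 306 CPM. Its groups did not overlap, but the log2 fold change of −0.42 (SE 0.166) did not pass (adjusted p = 0.233, edgeR). With the replicate block it did (adjusted p = 0.00445, edgeR).

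Khdrbs3 and Elavl2 were lower in each replicate number, but with a wide spread between cultures. Khdrbs3 had 114, 107 and 180 CPM with vehicle and 47.9, 85.9 and 93.4 CPM with topotecan, a log2 fold change of −0.81 (SE 0.249, adjusted p = 0.0758, and 5.11e-06 with the replicate block, edgeR). Elavl2 had 123, 167 and 207 CPM with vehicle and 74.4, 118 and 122 CPM with topotecan, a log2 fold change of −0.65 (SE 0.226, adjusted p = 0.14, and 1.07e-04 with the block, edgeR). In both genes all 3 topotecan libraries lay below all 3 vehicle libraries. The NOVA genes did not separate. Nova1 had 25.2, 37.3 and 46.6 CPM against 23.1, 26.6 and 38.5 CPM, with a log2 fold change of −0.29 (95% interval −0.87 to 0.29). Nova2 had 231, 253 and 173 CPM against 232, 327 and 176 CPM, with a log2 fold change of 0.16 (95% interval −0.28 to 0.61).

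**Figure D2:**
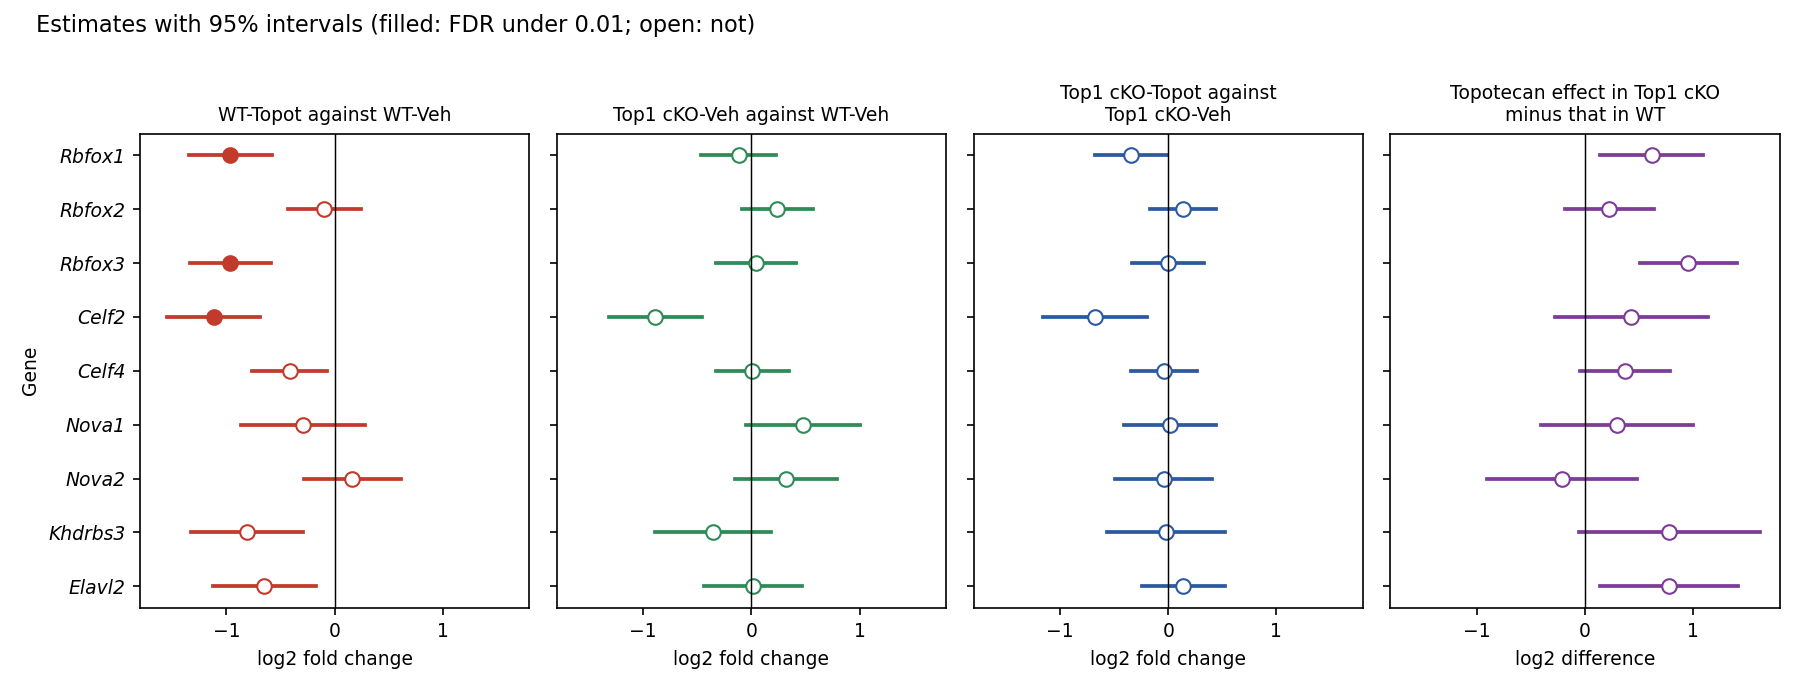
Estimates (points) and 95% intervals (lines) from edgeR for 9 genes, Khdrbs2 left out, as log2 fold changes in 3 comparisons and, at the right, the log2 difference of the topotecan effects (Top1 cKO minus WT). Filled points passed an FDR of 0.01, which only Rbfox1, Rbfox3 and Celf2 did, in WT-Topot against WT-Veh, and Celf2 is the one gene whose interval lies below 0 after Top1 deletion without drug.

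The order of the members followed their span only in part. Without Khdrbs2, the median log2 fold change of the other 9 was −0.65, with 8 negative, against 0.03 for all expressed genes (47.6% negative) and −0.43 for those over 100 kb (76.6% negative). The 280 such genes over 400 kb had a median of −1.81, and 62.5% of them were called lower. Rbfox1, Rbfox3 and Celf2, all over 400 kb, thus lay above that median, as did Celf4 and Rbfox2 above the median of −0.73 for the 515 genes of 200 to 400 kb. Khdrbs3, Elavl2 and Nova1 lay below the median of −0.21 for the 1160 genes of 100 to 200 kb. Against the spread of their classes, Rbfox1 and Rbfox3 were above the upper quartile (−1.11), Celf2 was near it and Rbfox2 was above that of its class (−0.26), while Khdrbs3 and Elavl2 were below the lower quartile (−0.54).

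**Figure D3:**
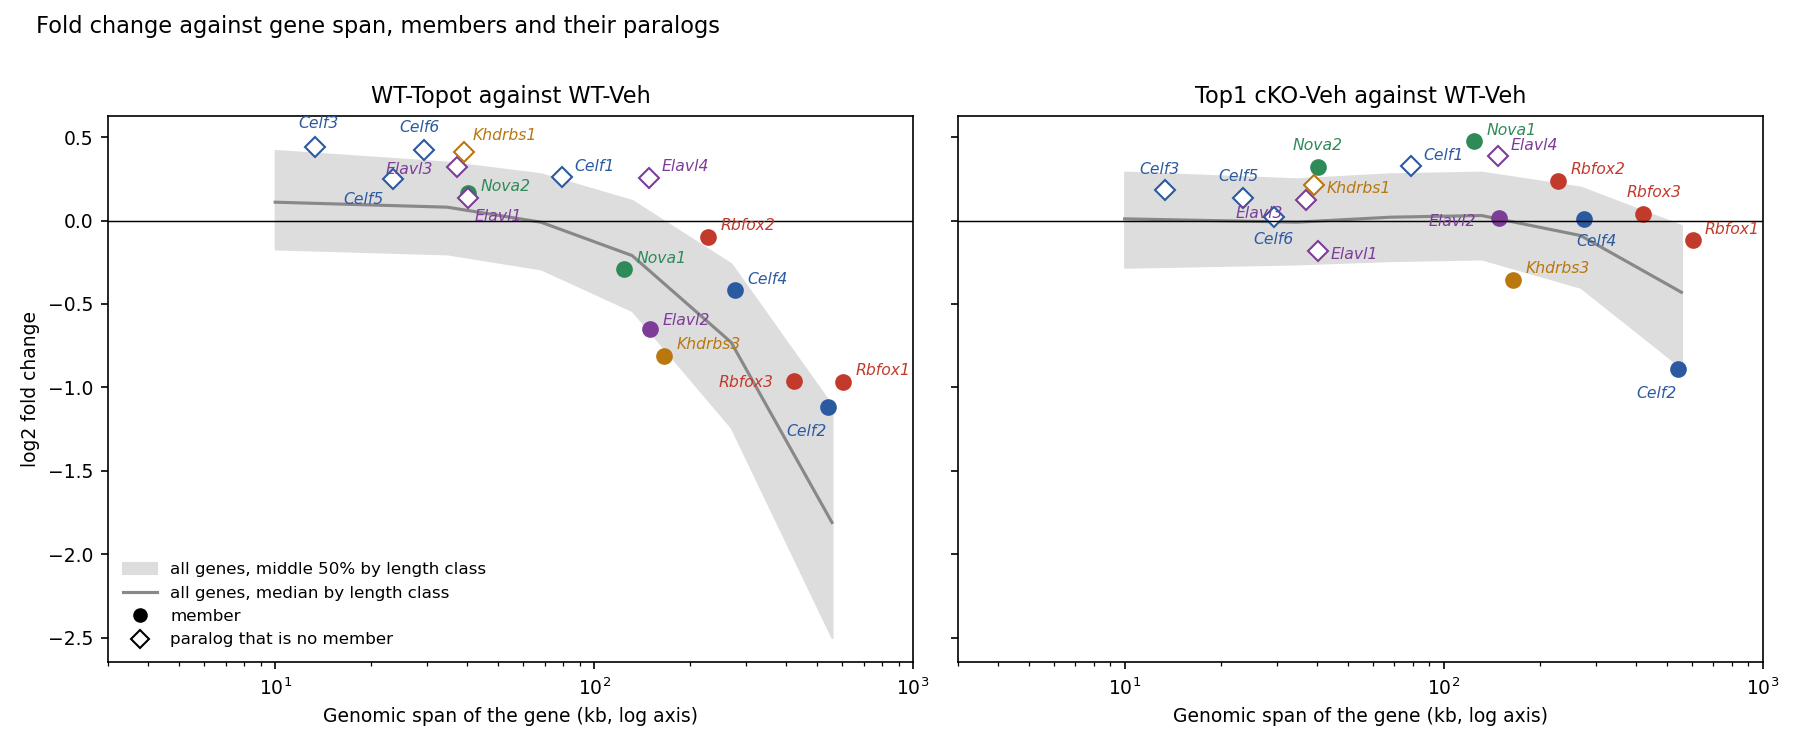
Log2 fold change against the genomic span of the gene (kb, log axis) for 9 of the 10 genes (filled circles) and 8 paralogs (open diamonds) in WT-Topot (left) and Top1 cKO-Veh (right) cells, each against WT-Veh, with the median and middle 50% of all expressed genes in 6 length classes. All 8 paralogs had positive values at the left, between 0.13 and 0.44, whereas 8 of the 9 plotted members had negative ones.

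After deletion of Top1 without drug no member passed the test, and Celf2 came nearest, at 1.85-fold below WT-Veh cells. At an FDR of 0.01 edgeR called 0 of the 10 genes in Top1 cKO-Veh against WT-Veh cells, where 0.172% of all genes were called. At an unadjusted p of 0.05 it called 1, Celf2, against 8.72% of all genes and 20.7% of expressed genes over 100 kb. DESeq2's Wald test, which called 160 of 23893 genes lower and 63 higher, called Celf2 as well. So did the replicate block, with which 2.95% of all genes and 11.9% of expressed genes over 100 kb were lower. By edgeR's exact test 0 of the 10 were called. Celf2 had 432, 469 and 270 CPM against 690, 837 and 640 CPM in WT-Veh cells, without overlap, and a log2 fold change of −0.89 (SE 0.203, adjusted p = 0.0598, 0.00765 with DESeq2 and 2.59e-16 with the block). Without WT-Veh replicate 2 the edgeR value was 0.223. Rbfox1 (238, 238 and 207 CPM) likewise lay below all WT-Veh libraries, but by a log2 fold change of only −0.12 (95% interval −0.47 to 0.23).

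Rbfox2 and Nova1 lay above all WT-Veh libraries in Top1 cKO-Veh cells. Libraries were thus lower without overlap for 2 of the 10 genes and higher for 2, against 10.3% and 9.58% of expressed genes. Of those over 100 kb the shares were 16.2% and 8.9%. Rbfox2 had 624, 679 and 572 CPM, a log2 fold change of 0.24 (95% interval −0.09 to 0.57). Nova1, the least abundant member after Khdrbs2, had 48.9, 47.4 and 54.1 CPM, a log2 fold change of 0.48 (95% interval −0.05 to 1.01). Neither passed the test. For Rbfox3 the log2 fold change was 0.04 (95% interval −0.33 to 0.41, libraries at 158, 174 and 151 CPM), so that a decrease of the size seen with topotecan lay outside the interval. The same held for Elavl2, whose interval was −0.43 to 0.47, and Khdrbs3 had a log2 fold change of −0.35 (95% interval −0.89 to 0.18). The 2 comparisons share the WT-Veh libraries. The median of the 9 genes without Khdrbs2 was 0.02, against −0.05 for genes over 100 kb.

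Once Top1 was deleted, no member passed the test for an effect of topotecan. Rbfox3 had a log2 fold change near 0, and Celf2 had the most negative one of the 9 genes with a fold change. In Top1 cKO-Topot against Top1 cKO-Veh cells 0 of the 10 genes passed by edgeR's quasi-likelihood test, its exact test or DESeq2's Wald test, and 0.00837% of all genes passed the first. At an unadjusted p of 0.05 there were 2 of 10, Rbfox1 and Celf2, against 4.32% of all genes and 16.9% of expressed genes over 100 kb. Rbfox3 stood at 167, 154 and 158 CPM with topotecan, a log2 fold change of −0.0029 (95% interval −0.34 to 0.33). Top1 cKO-Topot lay wholly below Top1 cKO-Veh for 1 of the 10 genes, 6.56% of expressed genes and 15.5% of those over 100 kb. That gene was Rbfox1, with 189, 182 and 163 CPM. Its log2 fold change was −0.34 (SE 0.157, unadjusted p = 0.0439, adjusted p = 1.0, edgeR; 0.0183 with the block). Celf2 had 238, 316 and 170 CPM, a log2 fold change of −0.68 (SE 0.227, adjusted p = 0.686, edgeR), and its groups overlapped, since Top1 cKO-Veh replicate 3 (270 CPM) lay below Top1 cKO-Topot replicate 2 (316 CPM). It was lower in each of the 3 replicate numbers and passed with the block (adjusted p = 7.95e-11, edgeR). With the block 1.74% of all genes and 10.9% of expressed genes over 100 kb were lower. Expressed genes over 400 kb had a median log2 fold change of −0.53 in this comparison without the block. Celf2 also passed without Top1 cKO-Veh replicate 3 (adjusted p = 0.003, edgeR). Leaving out that library gave 117 genes lower and 15 higher over the whole table, in place of 2 and 0.

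Whether topotecan acted differently in the 2 genotypes was tested as an interaction on all 12 libraries. The estimate was positive for 8 of the 9 genes without Khdrbs2, that is, less negative or more positive in Top1 cKO cells, and 0 passed an FDR of 0.01 in edgeR, where 0.435% of all genes did. At an unadjusted p of 0.05 there were 3 (Rbfox1, Rbfox3 and Elavl2), against 8.23% of all genes and 29.4% of expressed genes over 100 kb. Rbfox3 came nearest, with a difference of 0.95 (SE 0.215, 95% interval 0.51 to 1.40, adjusted p = 0.0269), and it was called by DESeq2 (adjusted p = 1.25e-05) and with the block (9.07e-05). With the block Rbfox1, Khdrbs3 and Elavl2 passed too, so 4 of 10 passed with a positive difference, against 2.44% of all genes and 18% of expressed genes over 100 kb. For Celf2 the difference was 0.43 with an interval of −0.28 to 1.13, so neither an equal nor a much smaller response in Top1 cKO cells lay outside it.

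Across all 4 groups Rbfox1 was ordered WT-Veh, Top1 cKO-Veh, Top1 cKO-Topot and WT-Topot, with each step larger than the SDs and no overlap between neighbors. Rbfox3 was set apart in WT-Topot cells alone, and its other 3 groups lay within an SD of each other. In Top1 cKO-Topot against WT-Topot cells 1 of 10 was higher, Rbfox3, with a log2 fold change of 0.99 (SE 0.171, adjusted p = 7.10e-04, edgeR), where 1.46% of all genes and 10% of expressed genes over 100 kb were. All Top1 cKO-Topot libraries lay above all WT-Topot libraries for 6 of 10 (Rbfox1, Rbfox2, Rbfox3, Celf4, Nova1 and Elavl2), against 13.3% of expressed genes and 31.3% of those over 100 kb. The same 6 passed with the block, where 4.6% of all genes were higher, and Celf2 was then lower, as were 4.08% of all genes. Elavl2, at 155, 176 and 216 CPM against 74.4, 118 and 122 CPM, had a log2 fold change of 0.79 (SE 0.197, adjusted p = 0.0163, edgeR). Against Top1 cKO-Veh cells, 2 of 10 were lower in WT-Topot cells, Rbfox3 (−1.01, SE 0.167, adjusted p = 0.00174) and Rbfox1 (−0.85, SE 0.176, adjusted p = 0.00951, edgeR), where 1.23% of all genes and 11.3% of expressed genes over 100 kb were. Without Top1 cKO-Veh replicate 2 both calls were lost (adjusted p = 0.0142 for Rbfox3 and 0.0433 for Rbfox1). That of Rbfox1 was also lost without WT-Topot replicate 1 (0.0437) or 3 (0.0565), or among genes kept by filterByExpr (0.0136). With the block 6 of 10 were lower in this comparison, against 4.8% of all genes and 33.2% of expressed genes over 100 kb. Celf2 had its lowest mean level with deletion and drug together. In Top1 cKO-Topot against WT-Veh cells its log2 fold change was −1.56 (SE 0.207, adjusted p = 7.23e-05, edgeR), a 2.94-fold decrease. It was 1 call among the 10, where 1.21% of all genes and 8.75% of expressed genes over 100 kb were lower. With the block Rbfox2 was called higher as well (adjusted p = 0.0094, edgeR), and 4.02% of all genes were lower and 3.34% higher.

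Ratios of paralogs within a library do not depend on the scaling of the library. With topotecan in WT cells 6 of 8 ratios of a member to a shorter paralog were lower in all 3 libraries than in any WT-Veh library. Ratios of other long to short genes were not computed, so no share stands beside this count or those below. Among single expressed genes over 100 kb, 39% lay wholly below WT-Veh. The log2 ratio of Celf2 to Celf1 went from 1.23 ± 0.0897 (SD, n = 3) to −0.18 ± 0.299, so that Celf1 counts exceeded those of Celf2 on average. That of Khdrbs3 to Khdrbs1 (Sam68) went from −0.37 ± 0.383 to −1.61 ± 0.514, and that of Elavl2 to Elavl3 from −0.89 ± 0.417 to −1.86 ± 0.284. The ratios of Rbfox1 and Rbfox3 to Rbfox2 changed by −0.88 and −0.86, and that of Celf4 to Celf3 by −0.87. An exact permutation test, two-sided, gave p = 0.1 for each, the smallest p that 3 libraries against 3 allow, and 0.133 after adjustment over the 8 ratios. The ratio of Nova1 to Nova2 overlapped (difference −0.43). Paired by replicate number it was lower in each pair (−0.13, −0.86 and −0.30), as were all 8 ratios.

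In Top1 cKO-Veh cells 3 ratios lay apart from WT-Veh cells, those of Celf2 to Celf1 (difference −1.24), Rbfox1 to Rbfox2 (−0.36) and Rbfox3 to Rbfox2 (−0.20), each with p = 0.1 by the exact permutation test and 0.267 after adjustment. In each replicate number the difference was negative for these 3. The same held for Khdrbs3 to Khdrbs1 (−0.58) and Celf4 to Celf3 (−0.18), whose libraries overlapped. With topotecan in Top1 cKO cells the ratio of Celf2 to Celf1 went from −0.01 ± 0.276 to −1.09 ± 0.171, and the differences for Rbfox1 to Rbfox2 and Rbfox3 to Rbfox2 were −0.48 and −0.14, all without overlap and negative in each replicate number (p = 0.1 for each, exact permutation test, and 0.267 after adjustment). Celf1, which shares targets with Celf2, had 306 ± 32.0 CPM in WT-Veh and 505 ± 95.3 CPM in Top1 cKO-Topot cells, without overlap, as 12% of expressed genes were higher. Its log2 fold change of 0.74 did not pass (adjusted p = 0.0236, and 7.08e-06 with the block, edgeR).

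**Figure D4:**
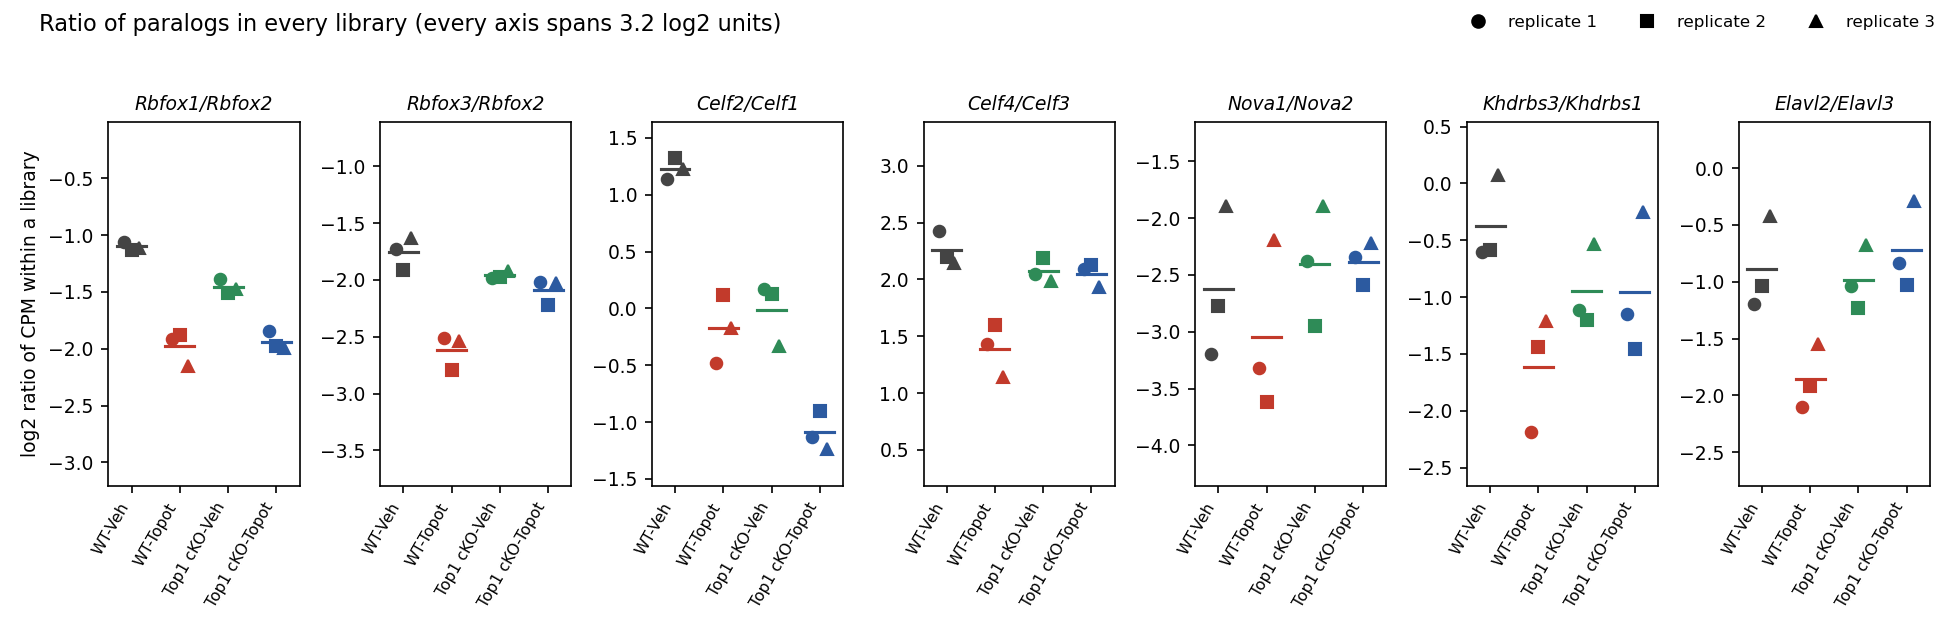
Log2 ratio of CPM of paralogs within each library (vertical axes, each spanning 3.2 log2 units) in the 4 groups, with 1 point for each library and a line at the group mean, for 7 of the 8 ratios (that of Khdrbs2 rests on 2 to 8 counts). The ratio of Celf2 to Celf1 lay near 1.23 in WT-Veh, near 0 in WT-Topot and Top1 cKO-Veh and near −1.09 in Top1 cKO-Topot cells, while that of Rbfox3 to Rbfox2 was lowest in WT-Topot cells.

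The 8 paralogs, Celf1, Celf3, Celf5, Celf6, Elavl1, Elavl3, Elavl4 and Khdrbs1, were not called in WT-Topot cells. All 8 had positive values there, with a median log2 fold change of 0.29. In edgeR 0 of 8 passed, where 0.682% of all genes were higher, and 2 had an unadjusted p under 0.05, against 13.1% of all genes. Libraries of Celf3 (0.44, SE 0.193), Celf5 (0.25, SE 0.167), Celf6 (0.42, SE 0.203) and Khdrbs1 (0.41, SE 0.169) lay above all WT-Veh libraries, as did those of 12.9% of expressed genes. Celf1 (0.26), Elavl1 (0.13), Elavl3 (0.32) and Elavl4 (0.26) overlapped. Paired by replicate number, all 8 were higher with topotecan in each pair. With the replicate block 7 of 8 had an unadjusted p under 0.05 in edgeR. The share of all genes under that unadjusted p was not computed with the block, so none stands beside this count. None of the 8 passed with the block, where 3.24% of all genes were higher. Elavl4 (HuD) spans 148.2 kb, close to the 149.2 kb of Elavl2, and stood at 168 ± 36.7 CPM in WT-Veh and 200 ± 26.7 CPM in WT-Topot cells (SD, n = 3). In Top1 cKO-Veh cells 0 of 8 passed, where 0.172% of all genes did, and the median of the 8 was 0.16.

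Other genes of RNA processing were mostly not called in WT-Topot cells, where 2.04% of all genes were lower and 0.682% higher. Of 23 further regulated splicing factors, 0 were lower and 1 was higher in WT-Topot cells: Rbm24, a splicing factor best known from muscle, went from 17.1 ± 1.54 to 42.5 ± 3.19 CPM (log2 fold change 1.32, SE 0.239, adjusted p = 0.00155, edgeR). Of 33 factors of mRNA transport, stability and translation, 1 was lower, Stau2, which carries mRNA into dendrites and spans 291.4 kb (91.7 ± 11.3 to 42.0 ± 8.51 CPM, log2 fold change −1.12, SE 0.213, adjusted p = 0.00247, edgeR). Of 56 core spliceosome, SR and hnRNP proteins, none over 100 kb, 1 was higher, Tra2a (30.9 ± 14.1 to 73.9 ± 10.8 CPM, log2 fold change 1.30, SE 0.274, adjusted p = 0.0061, and 0.0244 among genes kept by filterByExpr). The medians of the 3 lists were 0.26, −0.01 and 0.22. In Top1 cKO-Veh cells 0 genes of these 3 lists passed in edgeR, with 3, 3 and 7 at an unadjusted p under 0.05, against 8.72% of all genes. With the block, 2 were lower and 2 higher of the 23 in WT-Topot cells, 2 were lower of the 33, and 5 were higher of the 56, where 5% of all genes were lower and 3.24% higher. After deletion alone the block called 4 of the 23 and 2 of the 33 higher, and 1 of the 56 lower and 5 higher, where 2.95% of all genes were lower and 2.6% higher.

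Among 13 well-known RNA targets of these factors, 4 were called lower with topotecan in WT cells, and none was called higher, where 2.04% of all genes and 18% of expressed genes over 100 kb were lower. Of the 13, 6 span more than 100 kb. Nrxn3, a neurexin gene with an alternative exon that KHDRBS proteins control, had a log2 fold change of −3.55 (SE 0.249, adjusted p = 3.52e-08, edgeR). Dab1, a NOVA target of the reelin pathway, had a log2 fold change of −1.50 (SE 0.234, adjusted p = 3.05e-04, edgeR). Scn8a, a sodium channel gene and RBFOX target, had −1.09 (SE 0.217, adjusted p = 0.0035, and 0.0124 among genes kept by filterByExpr, edgeR). Nrxn3 spans 1612 kb, Dab1 1125 kb and Scn8a 90.5 kb. These are gene totals, from which inclusion of an exon cannot be read. In Top1 cKO-Veh cells 0 of the 13 passed an FDR of 0.01 in edgeR, 5 had an unadjusted p under 0.05, against 8.72% of all genes, and Nrxn3 was at −1.04 (adjusted p = 0.0415). With the block 6 of the 13 were lower and 1 was higher in WT-Topot cells, against 5% and 3.24% of all genes and 34.1% of expressed genes over 100 kb lower. After deletion alone 3 were then lower and 1 was higher, against 2.95% and 2.6% of all genes.

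Markers of other cells moved in the same comparison. In WT-Topot against WT-Veh cells 3 of 8 astrocyte markers were lower: Gfap (log2 fold change −2.54), Slc1a3 (−1.52, not called among genes kept by filterByExpr, adjusted p = 0.0123) and Slc1a2 (−1.39). Of all genes 2.04% were lower, and 6 of the 8 markers had negative values. Of the 7 markers of excitatory neurons 1 was higher, Tbr1 (1.12), where 0.682% of all genes were. The sum of these 7 was 2550 to 2790 CPM in WT-Veh and 2890 to 3320 CPM in WT-Topot libraries, without overlap. Of the 12 short neuronal markers 1 was higher, Ina (0.84), and of 9 progenitor and proliferation markers 1 was higher, Nes (1.22). The sum of these 9 was 200 to 531 CPM in WT-Veh and 562 to 964 CPM in WT-Topot libraries, without overlap. In Top1 cKO-Topot against Top1 cKO-Veh cells 0 of 8 astrocyte markers passed in edgeR, but all 8 were negative, as were 50% of expressed genes. The median of the 8 was −0.92, and 5 had an unadjusted p under 0.05, against 4.32% of all genes. With the block 5 of the 8 were lower there, where 1.74% of all genes were. In WT-Topot against WT-Veh cells the block called 5 astrocyte markers lower, 5 short neuronal markers higher and 2 lower, and 3 excitatory markers higher. Of all genes it called 5% lower and 3.24% higher. None of 9 interneuron markers was called in WT-Topot cells, and 5 had negative values. At an unadjusted p under 0.05 there were 6, against 13.1% of all genes. The block called 4 of the 9 lower and 2 higher, where 5% of all genes were lower and 3.24% higher. The interneuron markers summed to 805 to 1770 CPM in WT-Veh and 578 to 1060 CPM in WT-Topot libraries. The part of such shifts in the values of the RNA-binding factors was not tested.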

How the data were processed

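RNA-seq of 12 cultures was analyzed. What the authors deposited are raw counts, 1 per gene symbol, summed over its RefSeq exons. They rest on TopHat alignments to mm9 made at its defaults, from which ribosomal RNA was taken out, after a TagDust step on the raw reads. The counting program and its use of strand are not given in the sources used here. Of 23893 genes, 5182 had no count. The 10 genes, the gene lists and the tests were chosen with earlier results of these data known. All listed genes called in WT-Topot against WT-Veh cells, at most 6 a list, and all 8 paralogs were named, except 1 gene that is not reported here.

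Pairs of groups were compared on their 6 libraries with edgeR 4.0.16 (R 4.3.3; TMM, glmQLFit, glmQLFTest, no gene filter), with Benjamini-Hochberg adjustment over all genes and an FDR of 0.01. Standard errors were derived from the fold change and its F statistic. The alternatives were filterByExpr, RLE size factors, DESeq2 1.42.0, edgeR's exact test, an FDR of 0.05, a replicate block and each library left out. Deviations from the group mean correlated between libraries that share a replicate number (r = 0.261 to 0.485 over 18 pairs and 13720 genes, against −0.384 to −0.0494 for other pairs). The fit was also run on simulated counts, whose outcome is not given here. Replicates differed beyond counting noise, with a dispersion index of 6.44 to 10.9 where repeats of 1 library would give about 1. At these depths 3 counts equal 0.654 to 1.73 CPM. Spans come from GENCODE vM1 (21013 symbols matched).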

Additional observations from a re-analysis of the deposited data

Results flagged for a closer look

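The effect of topotecan differed between Top1 cKO and WT cells for 4 of the 10 genes when the interaction was tested with the replicate number as a block (edgeR's quasi-likelihood test on 12 libraries, FDR of 0.01), as it did in that direction for 2.44% of all genes and 18% of expressed genes over 100 kb. The log2 difference between the effects was 0.95 for Rbfox3 (adjusted p = 9.07e-05), 0.62 for Rbfox1 (0.00901), 0.78 for Khdrbs3 (0.00884) and 0.77 for Elavl2 (0.00172). Without the block the adjusted p were 0.0269, 0.326, 0.682 and 0.388. In all 4 the log2 fold change with topotecan was more negative in WT cells. Rbfox1 had a decrease in each replicate number of both genotypes, and in Rbfox3, Khdrbs3 and Elavl2 the interval of the effect in Top1 cKO cells included 0.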

How the results depend on the processing

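The replicate block changed the number of genes called among the 10 most, and it raised calls over the whole table too, for example from 1.23% to 4.8% of all genes lower in WT-Topot against Top1 cKO-Veh. It gave 6 in place of 3 in WT-Topot against WT-Veh, 1 in place of 0 in Top1 cKO-Veh against WT-Veh, 1 in place of 0 in Top1 cKO-Topot against Top1 cKO-Veh, 7 in place of 1 in Top1 cKO-Topot against WT-Topot, 2 in place of 1 in Top1 cKO-Topot against WT-Veh, 6 in place of 2 in WT-Topot against Top1 cKO-Veh and 4 in place of 0 for the interaction. DESeq2 gave 1, 2 and 1 in Top1 cKO-Veh against WT-Veh, Top1 cKO-Topot against WT-Topot and the interaction, an FDR of 0.05 gave 2 and 1 in the last 2 of these, and filterByExpr gave 1 in WT-Topot against Top1 cKO-Veh. Paired by replicate number, 5 paralog ratios in place of 3 moved one way in Top1 cKO-Veh cells. All 8 ratios, in place of 6, did so in WT-Topot against WT-Veh. In Top1 cKO-Topot against Top1 cKO-Veh that of Elavl2 to Elavl3 rose in each pair (0.20, 0.20 and 0.39) although its libraries overlapped. Leaving out single libraries gave 0 to 1 calls in Top1 cKO-Topot against Top1 cKO-Veh, 1 to 2 in Top1 cKO-Topot against WT-Topot and 0 to 2 in WT-Topot against Top1 cKO-Veh. The cause of these shifts was not tested.

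Of the log2 fold changes of single genes, 281 of 306 kept their direction and side of the threshold under alternatives that kept all libraries, and 392 of 432 when 1 library was left out. Those that changed sign were near 0. With filterByExpr Celf4 was at −0.00 in Top1 cKO-Veh cells. With 1 library left out, Nova2 ranged from −0.10 to 0.35 in WT-Topot against WT-Veh, from −0.08 to 0.37 in Top1 cKO-Topot against WT-Topot, from −0.40 to 0.11 in WT-Topot against Top1 cKO-Veh and from −0.40 to 0.05 for the interaction. In Top1 cKO-Veh cells the ranges were −0.03 to 0.10 for Rbfox3, −0.05 to 0.07 for Celf4 and −0.17 to 0.21 for Elavl2. In Top1 cKO-Topot against Top1 cKO-Veh they were −0.05 to 0.05 for Rbfox3, −0.05 to 0.09 for Nova1, −0.22 to 0.22 for Nova2, −0.35 to 0.28 for Khdrbs3 and −0.00 to 0.28 for Elavl2. In Top1 cKO-Topot against WT-Veh they were −0.02 to 0.11 for Rbfox3, −0.08 to 0.04 for Celf4 and −0.02 to 0.35 for Elavl2. Depth limits Khdrbs2, for which no fold change is given at 2 to 8 counts.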
